A study of Homo sapiens with 6 samples.

Results

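The BCL2 family genes that set the balance between survival and mitochondrial cell death were followed in RNA-seq libraries of cells labelled Hep3B, a hepatocellular carcinoma line. The members were named by role: the anti-apoptotic genes BCL2, BCL2L1 and MCL1, the effectors BAX and BAK1, and the BH3-only genes BCL2L11, BBC3, PMAIP1, BMF and BIK. These are 10 of the 27009 genes in the table, named by role and not by a measured value, although the choice was made with earlier results of these data known. All 6 libraries came from cells in which endogenous PD-L1 (CD274), the immune checkpoint ligand, had been knocked out. The control group (3 libraries, labelled vector) carried the empty lentiviral vector. The other group (3 libraries, labelled nPD-L1) carried a PD-L1 form with a mutated leucine-cysteine-leucine stretch, made to build up in the nucleus. The construct was driven by a CMV promoter, not the gene's own, in stable, puromycin-selected cells. The labels give no time point and no treatment. The study calls the libraries independent sequenced samples and does not say whether they came from separate cultures, so the p-values measure the spread between these libraries, which may be technical.

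BCL2 family proteins share short BCL2 homology (BH) segments and meet at the outer mitochondrial membrane. BAX and BAK1 open pores in that membrane, which releases cytochrome c and starts the caspases. BCL2, BCL-xL (from BCL2L1) and MCL1 hold them in check, and the BH3-only proteins BIM (BCL2L11), PUMA (BBC3), NOXA (PMAIP1), BMF and BIK bind those guardians, or the effectors themselves, through their BH3 segment. Liver cells are known to depend on BCL-xL and MCL1.

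The segment through which these proteins bind each other is shown as DNA, because it is what the 10 genes have in common. Each line gives 45 coding bases from the GENCODE v29 transcripts on GRCh38, 5′ to 3′ on the gene's own strand. The capitals mark the codon of the conserved leucine and the pair of codons that ends in the conserved aspartate.
BCL2 (chr18:63318346-63318390, reverse strand): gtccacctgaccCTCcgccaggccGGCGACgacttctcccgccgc
BCL2L1 (chr20:31721919-31721963, reverse strand): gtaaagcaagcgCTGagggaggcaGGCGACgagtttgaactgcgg
MCL1 (chr1:150578862-150578906, reverse strand): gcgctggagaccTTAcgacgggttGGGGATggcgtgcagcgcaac
BAX (chr19:48955775-48955819, forward strand): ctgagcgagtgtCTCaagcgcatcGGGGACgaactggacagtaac
BAK1 (chr6:33575384-33575428, reverse strand): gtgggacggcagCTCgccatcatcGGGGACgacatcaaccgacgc
BCL2L11 (chr2:111150091-111150135, forward strand): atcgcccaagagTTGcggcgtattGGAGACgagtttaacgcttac
BBC3 (chr19:47226576-47226620, reverse strand): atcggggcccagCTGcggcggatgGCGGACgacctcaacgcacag
PMAIP1 (chr18:59902661-59902705, forward strand): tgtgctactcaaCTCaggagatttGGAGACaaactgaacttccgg
BMF (chr15:40104192-40104236, reverse strand): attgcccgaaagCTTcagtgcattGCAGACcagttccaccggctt
BIK (chr22:43127704-43127748, forward strand): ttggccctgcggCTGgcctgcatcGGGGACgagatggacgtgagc
The aspartate codon was GAC in 9 of the 10 genes and GAT in MCL1. The codon before it began with GG in 8 genes, and BBC3 and BMF had GCG and GCA there. The segment lay in 7 of 17 coding transcripts of BCL2L11 and in 4 of 9 of BMF. Reads were counted per gene over all isoforms, so a level of BCL2L11 or BMF does not say how much of the RNA encoded the BH3 segment, and the long and short forms of BCL2L1 and MCL1 cannot be told apart either.

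Before the members, some facts of the libraries bear on how they are named. Recovered depth was 17427519 to 22253295 reads on genes per library, and values are given as scaled reads, the reads of a gene divided by a size factor for its library. Of the 8 liver markers looked for, 6 had a row: ALB, APOA1, APOB and TF were at no more than 2.02 scaled reads in any library, SERPINA1 ranged from 7.91 to 41.4, and HNF4A from 6.24 to 19.2 with the vector and from 33.8 to 51.6 with nPD-L1. The defining liver markers were therefore near 0 in cells labelled as liver cancer, and no other cell type name is given here. CD274 had 28.3, 38.4 and 47.8 scaled reads in the vector libraries, against 16.8, 19.2 and 30.9 in the nPD-L1 libraries (log2 fold change −0.76, SE 0.34, limma adjusted p = 0.338), so the table does not show the transgene as a higher CD274 level and groups are named by label throughout. Leukocyte and endothelial markers with a row stayed at or below 3.03 scaled reads, while the fibroblast marker COL1A1 was at 49.9 to 82.8 with the vector and 445 to 487 with nPD-L1 (PDGFRA, the other fibroblast marker with a row, stayed under 10). The part of COL1A1-expressing cells or of HNF4A in the results that follow was not tested. In bulk RNA, fewer cells of a kind and less RNA per cell cannot be told apart.

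Of the 10 members, 3 were higher in the libraries labelled nPD-L1 (BCL2L11, BMF and MCL1), 1 was lower (BCL2L1) and 6 did not pass the test. The test was limma on log2(scaled reads + 1) over 15076 genes, and a gene was called where its p, adjusted by Benjamini-Hochberg over all of them, was under 0.05. Over all those genes 4.04% were called higher and 0.922% lower, against which 3 and 1 of 10 members are to be read. The nPD-L1 libraries all lay above the vector libraries for 3 members and below them for 1, and over all genes tested these shares were 12.0% and 8.54%. The median log2 fold change of the members was −0.037, beside −0.019 over all genes, with members of opposed roles moving in both directions. All 10 passed the filter on low values.

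**Figure D1:**
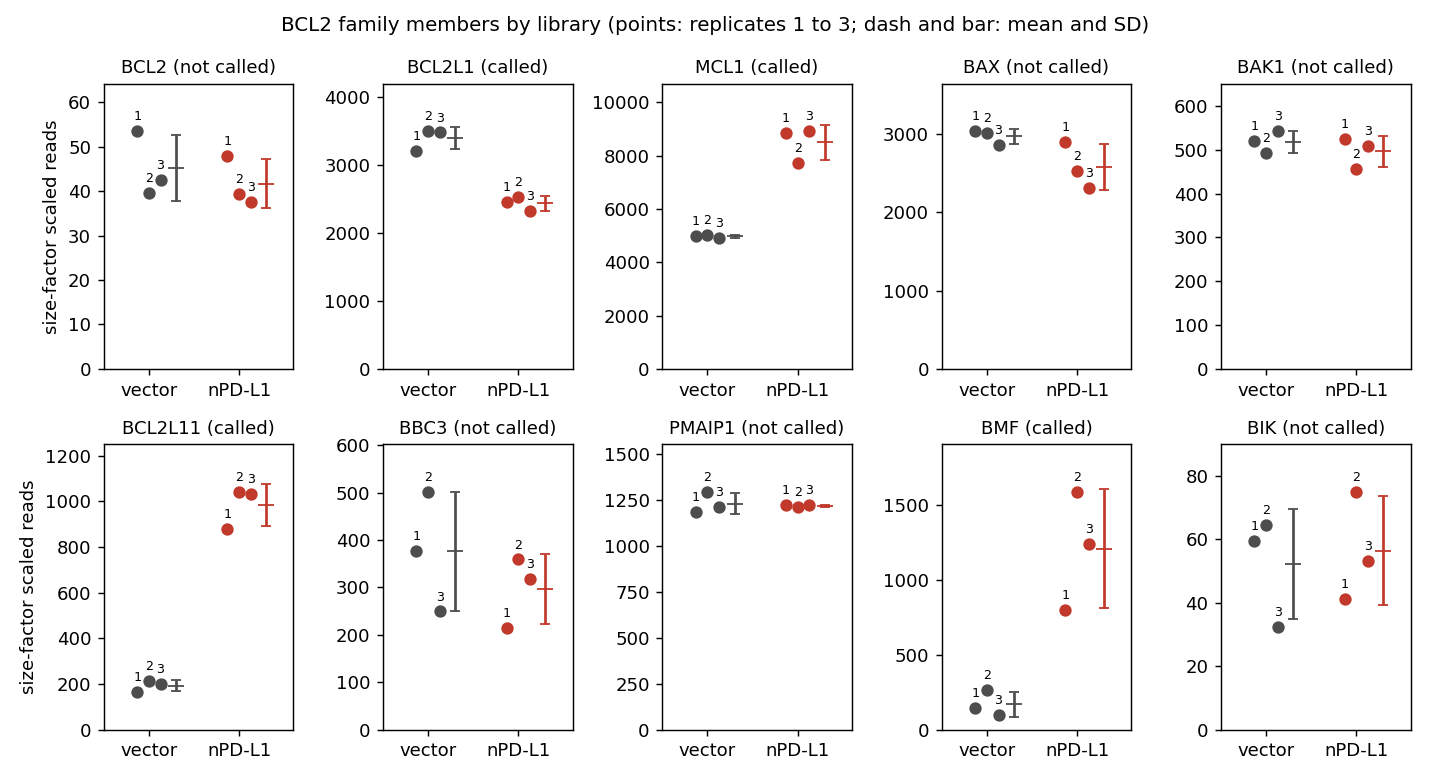
Scaled reads of each member (vertical axis from 0, a scale per gene) in the 3 vector and 3 nPD-L1 libraries, with the replicate number above each point and the mean and SD beside them. The groups are apart for BCL2L11, BMF and MCL1 (nPD-L1 above) and for BCL2L1 (nPD-L1 below), and they overlap for the other 6.

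BCL2L11 and BMF made the largest moves, and both encode BH3-only proteins. BCL2L11 (GRCh38 chromosome 2, 111119378 to 111168447, forward strand) encodes BIM, which can bind every anti-apoptotic member. It had 166, 213 and 201 scaled reads in the vector libraries, against 878, 1042 and 1032 in the nPD-L1 libraries. The lowest nPD-L1 library was thus far above the highest vector library. The means were 193 ± 24.8 and 984 ± 91.8 (SD, n = 3 each). BCL2L11 rose 5.09-fold (95% interval 4.12 to 6.28, log2 fold change 2.35, SE 0.14, limma adjusted p = 3.1e-06) and ranked 87th of the 15076 genes by log2 fold change.

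BMF (chromosome 15, 40087890 to 40108892, reverse strand) encodes a BH3-only protein that is held at the cytoskeleton through a dynein light chain until it is released. Its values were 146, 263 and 97.7 scaled reads with the vector and 800, 1590 and 1242 with nPD-L1. The groups did not overlap, but the libraries within each differed more than for BCL2L11: the coefficient of variation was 50.3% among vector and 32.7% among nPD-L1 libraries. BMF rose 7.44-fold (interval 4.24 to 13.1, log2 fold change 2.90, SE 0.36, limma adjusted p = 0.0016), the larger of the 2 fold changes and the less precise. It ranked 52nd by log2 fold change. With no filter on low values its adjusted p was 0.0789, the only alternative of 18 in which the call was lost.

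The remaining 3 BH3-only members did not pass the test. PMAIP1, which encodes NOXA, a partner of MCL1 in particular, was the steadiest member, with 1183, 1292 and 1209 scaled reads against 1219, 1212 and 1221. Its log2 fold change was −0.011 with an interval of −0.22 to 0.20, so a change of 2-fold lay outside the interval. BBC3, which encodes PUMA, had 377, 501 and 249 with the vector and 214, 359 and 317 with nPD-L1. BIK, whose protein sits largely at the endoplasmic reticulum, had 59.6, 64.4 and 32.2 against 41.2, 74.8 and 53.1. In both the groups overlapped and the intervals were wide, from −0.88 to 0.25 for BBC3 and from −0.58 to 0.85 for BIK (adjusted p = 0.651 and 0.888). For BIK the lowest library held 31 reads, a counting error of 18.0%, so depth limits what can be said of it.

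BMF, BBC3 and BIK shared the order of their libraries within each group. All 3 were highest in vector replicate 2 and lowest in vector replicate 3, and highest in nPD-L1 replicate 2 and lowest in nPD-L1 replicate 1. None of the other 7 members had this order in both groups, and 6.22% of all genes tested had it (938 genes, BMF, BBC3 and BIK included). Taken per kilobase of gene model, the ratio of BMF to BBC3 was 0.226, 0.306 and 0.229 in the vector libraries, against 2.18, 2.59 and 2.28 in the nPD-L1 libraries. Relative to its mean, this ratio spread less among the libraries of a group than BMF alone, and the groups did not overlap. The order looked for was that of BMF itself, and the smaller spread of the ratio follows in part from the shared order. What differed between the libraries of a group is not given in the labels, and its part in the BMF values was not tested.

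**Figure D2:**
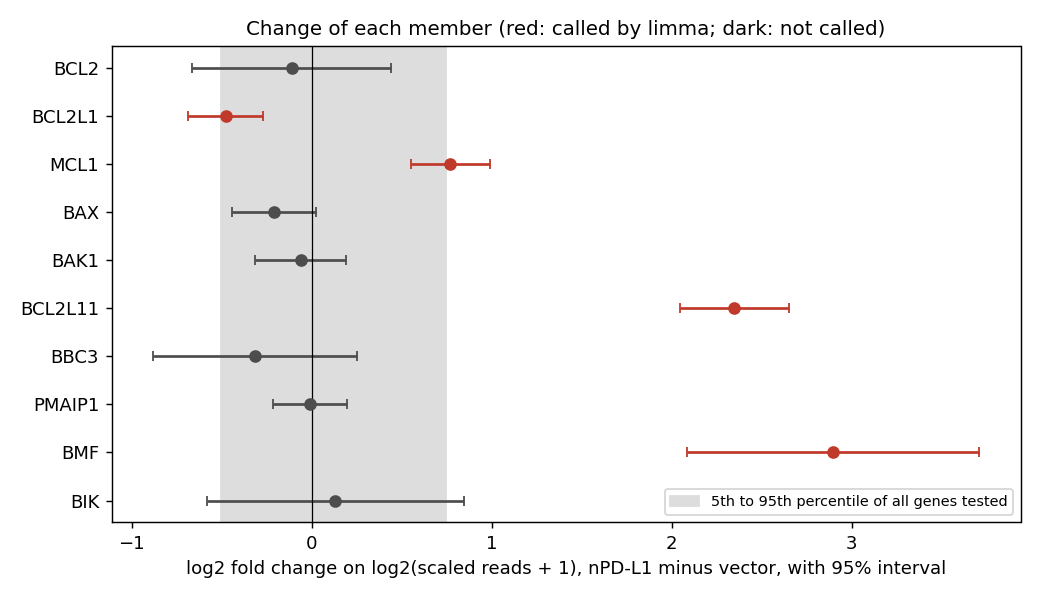
Log2 fold change of each member (horizontal axis, nPD-L1 minus vector on log2(scaled reads + 1)) with its 95% interval from limma, red where called, over a grey band from the 5th to the 95th percentile of all genes tested (−0.50 to 0.74). BCL2L11 and BMF lie far to the right of the band, MCL1 at its upper edge and BCL2L1 at its lower edge.

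The guardians moved in opposite directions. MCL1 (chromosome 1, 150574551 to 150579738, reverse strand), whose protein turns over fast, had 4993, 5010 and 4921 scaled reads in the vector libraries, against 8853, 7739 and 8915 in the nPD-L1 libraries. The vector libraries were nearly alike, and the lowest nPD-L1 library was well above all of them. MCL1 rose 1.71-fold (interval 1.47 to 1.99, log2 fold change 0.77, SE 0.099, limma adjusted p = 0.00094). BCL2L1 (chromosome 20, 31664452 to 31723989, reverse strand), the gene of BCL-xL, had 3203, 3495 and 3477 with the vector and 2455, 2530 and 2317 with nPD-L1. All nPD-L1 libraries were below all vector libraries, by a smaller margin than for MCL1. BCL2L1 was 1.39-fold higher with the vector (log2 fold change −0.48, SE 0.093, interval −0.69 to −0.27, limma adjusted p = 0.0125), and 5.51% of all genes had a smaller log2 fold change. Its call was lost when any 1 nPD-L1 library was left out (adjusted p = 0.0606 without replicate 1, 0.0587 without replicate 2 and 0.0876 without replicate 3). BCL2, the founding member, was scarce, with 53.5, 39.5 and 42.6 against 47.9, 39.4 and 37.6, and its groups overlapped (log2 fold change −0.11, interval −0.66 to 0.44, limma adjusted p = 0.878).

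**Figure D3:**
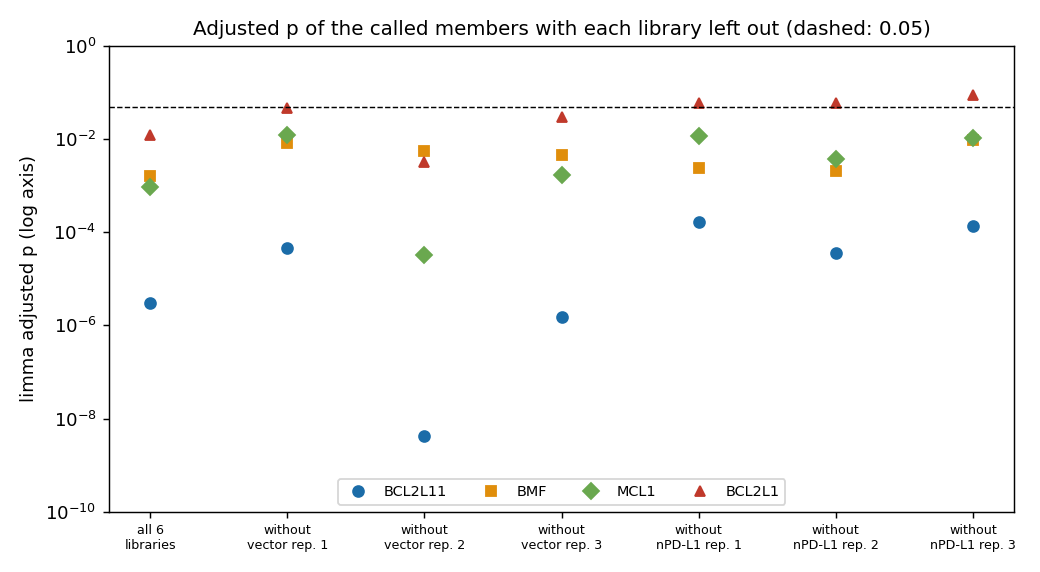
Limma adjusted p (log axis) of the 4 called members with all 6 libraries and with each library left out in turn, and a dashed line at 0.05. BCL2L11, BMF and MCL1 stay under the line throughout, and BCL2L1 crosses it when any nPD-L1 library is left out, with its highest value, 0.0876, without replicate 3.

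The pore formers were not called. BAX had 3032, 3012 and 2855 scaled reads with the vector and 2894, 2526 and 2308 with nPD-L1, with 1 nPD-L1 library inside the vector range (log2 fold change −0.21, interval −0.44 to 0.026, limma adjusted p = 0.433). BAK1 had 520, 492 and 542 against 525, 457 and 508, which overlapped widely (log2 fold change −0.062, interval −0.31 to 0.19, limma adjusted p = 0.851). Both intervals leave out a change of 2-fold in either direction. A two-sided exact permutation test of single genes cannot go below 0.1 with 3 libraries against 3. It gave 0.1 for BCL2L11, BMF, MCL1 and BCL2L1 and 0.2 or more for the other 6.

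To set members against each other, scaled reads were divided by the length of the gene model. In the vector libraries BAX (mean 1147 scaled reads per kilobase), MCL1 (1138) and BCL2L1 (1024) led, followed by PMAIP1 (549), BAK1 (234), BBC3 (118), BIK (54.6), BMF (31.0), BCL2L11 (29.0) and BCL2 (3.84). The libraries of BAX and MCL1 overlapped, as did those of BIK and BMF and those of BMF and BCL2L11, and the other neighbours in this order did not. In the nPD-L1 libraries MCL1 led with 1945 per kilobase, and BAX (996), BCL2L1 (734) and PMAIP1 (545) came after it. BAK1 (225), BMF (222) and BCL2L11 (148) then stood next to each other, above BBC3 (93.4), BIK (59.1) and BCL2 (3.54). Neighbours that overlapped were BAK1 and BMF, BMF and BCL2L11, and BBC3 and BIK. BMF moved from place 8 to place 6 and BCL2L11 from 9 to 7. Both stayed under PMAIP1, the most abundant of the BH3-only members in either group. BID, BAD and HRK were not part of this order.

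**Figure D4:**
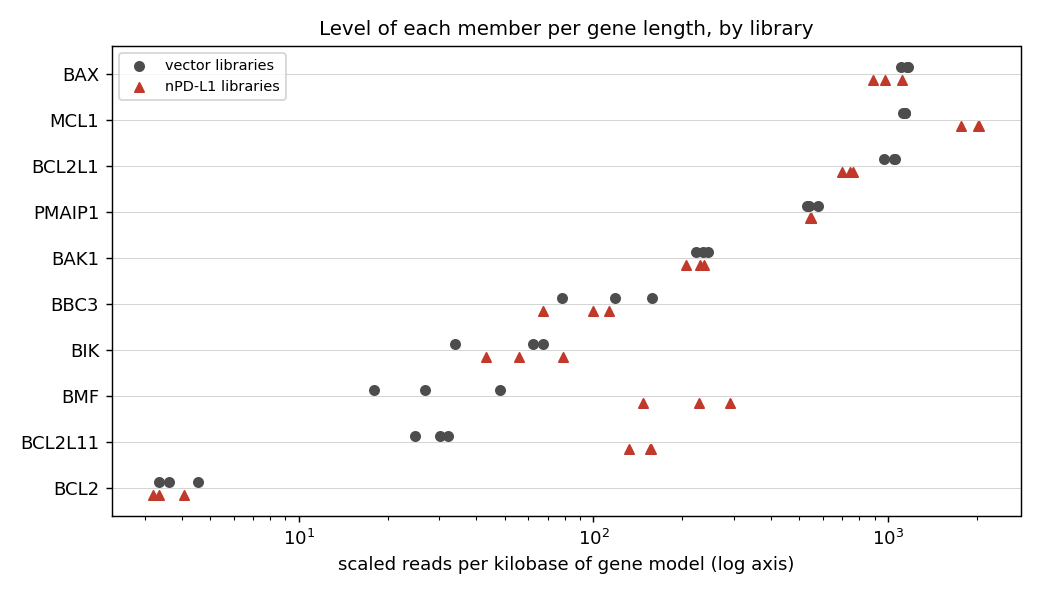
Level of each member in scaled reads per kilobase of gene model (log axis), vector libraries as circles and nPD-L1 libraries as triangles, ordered by the vector mean. BMF and BCL2L11 leave the low end near 30. BMF reaches the range of BAK1, BCL2L11 stays below it, and the nPD-L1 libraries of MCL1 lie above those of BAX.

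The share of single members in the anti-apoptotic and BH3-only sums differed between the groups. Summed per kilobase, the anti-apoptotic members came to 2113, 2204 and 2179 in the vector libraries, against 2770, 2537 and 2742 in the nPD-L1 libraries. MCL1 held 54.1%, 52.0% and 51.7% of this sum with the vector and 73.1%, 69.8% and 74.4% with nPD-L1, and the ratio of MCL1 to BCL2L1 went from 1.07 to 1.18 in the vector libraries to 2.32 to 2.92 in the nPD-L1 libraries. The nPD-L1 libraries thus carried more RNA of BCL2, BCL2L1 and MCL1 together, most of it MCL1. BCL2A1 and BCL2L2 were not in the sum (log2 fold change −1.49, called lower, and −0.18, not called). The effectors came to 1407, 1387 and 1349 with the vector and 1356, 1183 and 1122 with nPD-L1, and the groups overlapped. The BH3-only members came to 762, 884 and 701 per kilobase with the vector and 935, 1182 and 1085 with nPD-L1. BID, BAD and HRK were not in this sum (log2 fold change −0.18, −0.34 and −0.23, none called). BCL2L11 and BMF together made up 6.79%, 9.09% and 6.86% of the BH3-only sum in the vector libraries, against 29.8%, 37.9% and 35.3% in the nPD-L1 libraries. PMAIP1 made up 65.4% to 77.1% of it with the vector and 45.9% to 58.4% with nPD-L1. The ratio of the BH3-only sum to the anti-apoptotic sum was 0.361, 0.401 and 0.322 against 0.338, 0.466 and 0.396, and here the groups overlapped. MCL1 RNA stood at 35.8 to 45.9 times the BCL2L11 level per kilobase in the vector libraries and at 11.3 to 15.4 times in the nPD-L1 libraries. These sums and ratios are descriptions of RNA and were not tested, and they follow in part from the members' changes already given.

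**Figure D5:**
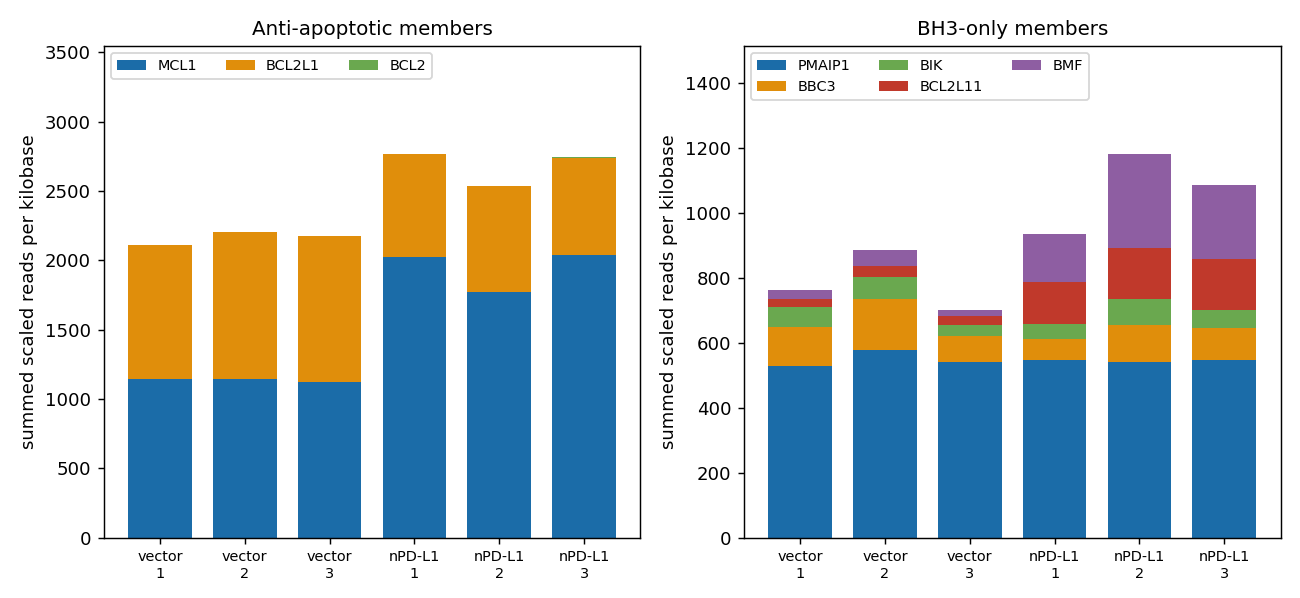
Summed scaled reads per kilobase in each library, stacked by member, for the anti-apoptotic genes (left, BCL2 too thin to see) and the BH3-only genes (right). The MCL1 block grows and the BCL2L1 block shrinks in the nPD-L1 libraries, and the BCL2L11 and BMF blocks widen over a level PMAIP1 block.

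The rest of the pathway was counted in 6 lists of genes. Of 11 tested genes among the other BCL2 family members, none was called higher and 1 lower. That was BCL2A1, an anti-apoptotic NF-κB target, with 53.5, 81.3 and 107 scaled reads with the vector and 21.8, 25.3 and 35.7 with nPD-L1 (log2 fold change −1.49, SE 0.31, limma adjusted p = 0.0184, up to 0.103 and not called without vector replicate 3 or nPD-L1 replicate 1 or 2). BID, which links death receptors to mitochondria, had a log2 fold change of −0.18 (adjusted p = 0.596), and BAD one of −0.34 (adjusted p = 0.220). The median of the list was −0.18.

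Downstream of the pore, 1 of 13 tested rows for the apoptosome, caspases and released mitochondrial proteins was called higher and none lower (median −0.09). APAF1, the scaffold of the apoptosome, had 386, 330 and 452 scaled reads with the vector and 655, 545 and 669 with nPD-L1. It rose 1.61-fold (log2 fold change 0.68, SE 0.14, limma adjusted p = 0.0198), and was not called without vector replicate 1 or nPD-L1 replicate 1 or 3 (adjusted p up to 0.126). Among the 6 inhibitor of apoptosis genes, limma and edgeR called none higher and 1 lower (median 0.08, 3 with an unadjusted limma p under 0.05). DESeq2 called 1 higher, as did limma with the replicate block, on protein-coding genes alone, or without vector replicate 2 or 3. BIRC3, which encodes cIAP2, had 4239, 4528 and 4214 scaled reads with the vector and 2075, 2438 and 2820 with nPD-L1, and it was called in all 18 alternatives (log2 fold change −0.83, SE 0.12, limma adjusted p = 0.0018). XIAP, which blocks caspases directly, had 852 to 950 against 1120 to 1225 (log2 fold change 0.39, adjusted p = 0.0566).

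None of the 11 tested death receptor genes was called by limma or edgeR (median −0.09), while 1 was called higher by DESeq2, by limma with the replicate block and by limma without vector replicate 2, and 1 had an unadjusted limma p under 0.05. That was TNFRSF10B, the TRAIL receptor DR5, with 3461 to 3926 scaled reads against 4518 to 4891 (log2 fold change 0.35, adjusted p = 0.0695). None of the 5 tested genes whose proteins degrade or tether BCL2 family proteins was called by limma, edgeR or DESeq2 (median 0.0025), and 1 had an unadjusted limma p under 0.05, USP9X, which stabilises MCL1 (log2 fold change 0.26, adjusted p = 0.313). DYNLL1, the BIM-binding dynein light chain, had a log2 fold change of −0.22.

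Transcription factors known to act on BH3-only genes counted 4 higher and 1 lower of 15 tested (median 0.14), beside 4.04% higher and 0.922% lower over all genes. FOXO1, a known activator of BCL2L11, had 129, 187 and 143 scaled reads with the vector and 451, 488 and 502 with nPD-L1 (log2 fold change 1.66, SE 0.16, limma adjusted p = 0.00012). JUN, an AP-1 subunit, had 1451, 1326 and 895 against 4789, 3877 and 4105 (log2 fold change 1.82, SE 0.17, limma adjusted p = 8.8e-05). ATF3 rose by a log2 fold change of 1.29 and RUNX1 by 1.01. DDIT3, which encodes the stress factor CHOP, had 684, 929 and 627 against 349, 499 and 374 (log2 fold change −0.87, SE 0.18, limma adjusted p = 0.0157), and was not called without vector replicate 1 or nPD-L1 replicate 1 or 3 (adjusted p up to 0.108). Factor RNA levels say nothing of their activity on the members, which was not measured in this table.

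Letters of binding motifs for some factors of this list were looked for in the 250 bases before each annotated start, from RefSeq on GRCh38.p14. One of them, E2F1, was not called (log2 fold change −0.05, limma adjusted p = 0.856). No motif of RUNX1 or DDIT3 was looked for. Windows were found for 8 of the 10 members (10 windows), and MCL1 and BIK had none in the table. The motifs, chosen with the results known, were GTAAACA for FOXO, TGANTCA for AP-1 and TTNGCGC for E2F, on both strands, and they occur in 2.98%, 6.57% and 6.60% of 35116 windows of the same length. The 4 windows that held a match are shown 5′ to 3′ on the gene's strand, with the matching letters in capitals.
BCL2L11 (chr2:111120664-111120913, forward strand): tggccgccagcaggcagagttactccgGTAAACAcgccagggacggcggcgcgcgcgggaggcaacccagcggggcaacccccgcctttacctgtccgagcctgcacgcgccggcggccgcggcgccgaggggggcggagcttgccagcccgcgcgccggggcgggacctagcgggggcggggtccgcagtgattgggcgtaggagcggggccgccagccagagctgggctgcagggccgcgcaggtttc
BMF (chr15:40108880-40109129, reverse strand): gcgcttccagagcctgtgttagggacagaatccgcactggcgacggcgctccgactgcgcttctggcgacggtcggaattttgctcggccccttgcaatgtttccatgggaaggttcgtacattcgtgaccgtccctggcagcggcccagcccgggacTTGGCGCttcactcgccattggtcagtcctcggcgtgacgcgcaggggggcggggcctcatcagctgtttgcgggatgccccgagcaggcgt
BCL2L1 (chr20:31723964-31724213, reverse strand): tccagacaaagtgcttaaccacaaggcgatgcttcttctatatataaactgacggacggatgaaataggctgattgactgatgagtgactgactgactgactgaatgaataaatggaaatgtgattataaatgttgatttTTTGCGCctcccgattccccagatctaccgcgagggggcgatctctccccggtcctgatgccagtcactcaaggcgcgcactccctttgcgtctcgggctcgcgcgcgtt
BBC3 (chr19:47232668-47232917, reverse strand): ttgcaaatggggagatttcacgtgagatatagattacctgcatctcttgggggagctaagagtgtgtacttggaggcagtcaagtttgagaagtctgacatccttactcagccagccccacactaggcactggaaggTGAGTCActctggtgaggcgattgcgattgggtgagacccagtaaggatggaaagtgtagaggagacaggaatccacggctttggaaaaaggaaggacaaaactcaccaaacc
BCL2L11 held a FOXO match that began 223 bases before the start, and its window was 76.8% G or C. BMF and BCL2L1, which moved in opposite directions, each held an E2F match, and BBC3, which was not called, held the AP-1 match. The BMF and BCL2L1 windows shown are the upstream of 2 each, and the other window of either gene held none of the motifs. A match is a description of these letters and not a site.

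Some members share exonic bases with genes on the opposite strand, and the sources used here do not say that strand was used in counting. The antisense gene ABALON covers 43.0% of the BCL2L1 exons (1424 bases), with 23.7 to 101 scaled reads in the vector and 43.5 to 60.5 in the nPD-L1 libraries, against 2317 or more for BCL2L1. MIR4435-2HG covers 10.9% of the BCL2L11 exons (727 bases) and had 313 to 434 against 341 to 377 (log2 fold change −0.09, adjusted p = 0.835), so the row of the overlapping gene did not rise with BCL2L11. BMF-AS1 covers 8.46% of the BMF exons and had no row among the deposited values, so its level is not known.

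The genes whose log2 values followed a called member most closely over the 6 libraries, among 10254 compared, were FOSB, RYBP and ZSWIM4 for BCL2L11 (Pearson r 0.999, 0.998 and 0.997) and ZNF362, DNAJC22 and MEGF9 for BMF (0.997, 0.996 and 0.996). For MCL1 they were LEMD3, KDM2B and SRRM3 (0.997, 0.995 and 0.993), and for BCL2L1 CSKMT, RASSF10 and SOX21 (0.989, 0.987 and 0.984). With 2 groups that stand apart, such values mostly reflect the gap between the groups. The members were left out of the genes compared, so these values do not say how closely members followed each other.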

How the data were processed

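RNA-seq of 6 libraries (3 vector, 3 nPD-L1) was analysed, grouped by sample title. The labels name CASAVA, HISAT2 2.0.5 and hg38, the library kit was NEBNext Ultra RNA, and the counter and annotation are not given in the sources used here. The members' coordinates and lengths equal GENCODE v29. What the authors deposited for each library is a signal, reads divided by a size factor. All values (100%) were whole multiples, within 0.001 reads, of a step of 0.840 to 1.13 per library, and the reads recovered so were used for edgeR and DESeq2. The authors' group means, fold changes and p-values were not used.

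Log2(value + 1) of the 15076 genes with at least 10 in at least 3 libraries was fitted with limma 3.58.1 (R 4.3.3, trend and robust eBayes) and adjusted by Benjamini-Hochberg. Alternatives covered pseudocount, filter, scaling, gene type, length trend, replicate block, each library left out, edgeR 4.0.16 and DESeq2 1.42.0. The fit was also run on simulated data with the same spread setting for every gene. That setting does not cover a spread as wide as that of BMF. All 10 members were named. From the lists, genes were named where called, or as examples chosen after their values were seen, and some list genes are not reported here. The members and lists were chosen with earlier results of these data known.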

Additional observations from a re-analysis of the deposited data

How the results depend on the processing

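Members called higher numbered 3 in the report and 2 or 3 in every alternative, with 2 when no filter was applied and 2 when a log2 fold change of at least 1 was also asked for. Members called lower numbered 1, and 0 when that fold was asked for, with a range of 0 to 1 over the fits that leave out a library. Called genes over the 6 pathway lists numbered 8, and 5 to 11 over those fits. Of 180 comparisons of a member with an alternative, 171 kept direction and side of the threshold, 4 lost the call (BCL2L1 without each nPD-L1 library, BMF with no filter), 0 gained it and 5 turned direction, all in members not called: BCL2 (0.013 without vector replicate 1, range −0.21 to 0.013), PMAIP1 (0.033 with the gene length trend removed, and −0.038 to 0.026 with a library left out) and BIK (−0.18 to 0.33 with a library left out). Over all alternatives the adjusted p of BCL2L11 stayed at or under 0.00016, of MCL1 at or under 0.012, and that of BCL2L1 ranged from 0.00025 to 0.0876.

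The replicate block raised the calls over all genes from 609 to 927 higher and from 139 to 258 lower, while 3 members stayed higher and 1 lower. Deviations of same-numbered libraries correlated at −0.013, 0.23 and 0.13 for numbers 1, 2 and 3. Vector replicates 2 and 3 each correlated best with the nPD-L1 replicate of the same number. Vector replicate 1 correlated best with nPD-L1 replicate 3 (0.074). These values do not settle whether the numbers are pairs, and the main fit does not take them as pairs. Calls over all genes also depended on single libraries. There were 405 higher and 76 lower without vector replicate 1, and 791 and 242 without vector replicate 2. Without vector replicate 3 they were 679 and 137, closer to the main fit. The counts were 337 and 83 without nPD-L1 replicate 1, 375 and 85 without nPD-L1 replicate 2, and 331 and 77 without nPD-L1 replicate 3. The cause was not tested. Depth limits BCL2 and BIK, with as few as 35 and 31 reads in a library. Intervals cover the spread between libraries only.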
